A study of Mus musculus with 12 samples.

Results

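The major histocompatibility complex (MHC) class II genes form the set described here: the chains H2-Aa, H2-Ab1 and H2-Eb1, the invariant chain Cd74, the peptide editors H2-DMa, H2-DMb1 and H2-DMb2, their inhibitors H2-Oa and H2-Ob, and the transactivator Ciita. These 10 genes were taken by symbol from the 55291 genes of the deposited table. RNA came from alveolar macrophages, phagocytes that live in the air spaces of the lung, which had been flow-sorted from the lungs of female C57BL/6NJ mice aged 8 to 11 weeks. In one group 6 mice had breathed ozone at 0.8 ppm, and in the other 6 mice had breathed filtered air, in both cases for 4 h a day over 4 days in succession, with lungs taken 3 days later. No mouse in either group is labelled as carrying a transgene or mutation, and each library came from 1 mouse. Sorting was done in 2 batches of 3 ozone and 3 filtered-air mice each.

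MHC class II molecules present peptides from engulfed proteins to CD4+ T cells. An alpha and a beta chain assemble with Cd74, which blocks the groove and guides the complex to endosomes, where H2-DM helps to exchange the last Cd74 fragment for a peptide and H2-O restrains H2-DM. Transcription of class II genes depends largely on Ciita, a coactivator that does not bind DNA itself but joins factors assembled on a promoter module of S, X and Y boxes. Alveolar macrophages are known for low class II levels compared with dendritic cells, and C57BL/6 mice make no H2-Ea chain, so that H2-Eb1 has no alpha partner at the surface.

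The promoter sequences are shown because one module is shared by classical and accessory genes, whose values are compared after them. RefSeq windows from 250 bases before to 50 bases after the annotated start (build GRCm38.p6, the assembly of mm10) were matched by symbol for 7 of the 10 genes, while H2-Ab1, Cd74 and Ciita were not matched. Both strands were searched for AAC, a short part of the X box, followed after 24 to 27 bases by GATTGG, the Y box core to which the factor NF-Y binds. The letters and spacing were chosen after these promoters had been read. The pair was present in 6 of the 7 genes, against 0.913% of all 32851 RefSeq promoter windows of the same length (300 windows, either strand). GATTGG alone was present in 16.1% of all windows. H2-DMa has 2 windows, of which 1 held GATTGG and 0 held the pair. In the lines that follow, capitals mark AAC and GATTGG, each sequence runs 5′ to 3′ on the strand of its gene, and stretches that GENCODE M21 counts as exon are left out, apart from 1 base of the H2-Oa motif.
H2-Aa: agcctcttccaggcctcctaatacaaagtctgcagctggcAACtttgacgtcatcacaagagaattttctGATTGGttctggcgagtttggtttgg
H2-Eb1: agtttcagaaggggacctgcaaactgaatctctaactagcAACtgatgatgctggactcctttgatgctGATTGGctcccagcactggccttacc
H2-DMb2: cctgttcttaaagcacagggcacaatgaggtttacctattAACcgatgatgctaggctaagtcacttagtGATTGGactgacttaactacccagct
H2-Oa: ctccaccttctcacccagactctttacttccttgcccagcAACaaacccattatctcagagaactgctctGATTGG
H2-Ob: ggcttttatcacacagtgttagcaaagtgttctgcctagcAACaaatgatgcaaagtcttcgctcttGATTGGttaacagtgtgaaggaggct

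All 5 stretches lie in the class II region of chromosome 17. The H2-Aa stretch is at chr17:34287847-34287942 on the minus strand, upstream of the gene and outside any annotated gene. The H2-Eb1 stretch is at chr17:34305738-34305832 on the plus strand, upstream of the gene and within a gene annotated on the opposite strand. The H2-DMb2 stretch, at chr17:34145088-34145183 on the plus strand, is not exonic but lies within the annotated span of H2-DMb2, which has a transcript starting further upstream. The H2-Oa stretch, at chr17:34092265-34092340, and the H2-Ob stretch, at chr17:34238780-34238872, are upstream of their genes on the plus strand, the former within a gene annotated on the opposite strand. The pair of H2-DMb1 is not printed because its 36 bases fall in an exon of a longer GENCODE transcript. Counted back from the annotated start, AAC began at -79 in H2-Aa, -89 in H2-Eb1, -92 in H2-DMb1, -121 in H2-DMb2, -74 in H2-Oa and -85 in H2-Ob. The spacing to GATTGG was 27 bases in H2-Aa, H2-DMb1, H2-DMb2 and H2-Oa, 26 in H2-Eb1 and 24 in H2-Ob. A match describes letters only, and binding was not measured.

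**Figure D1:**
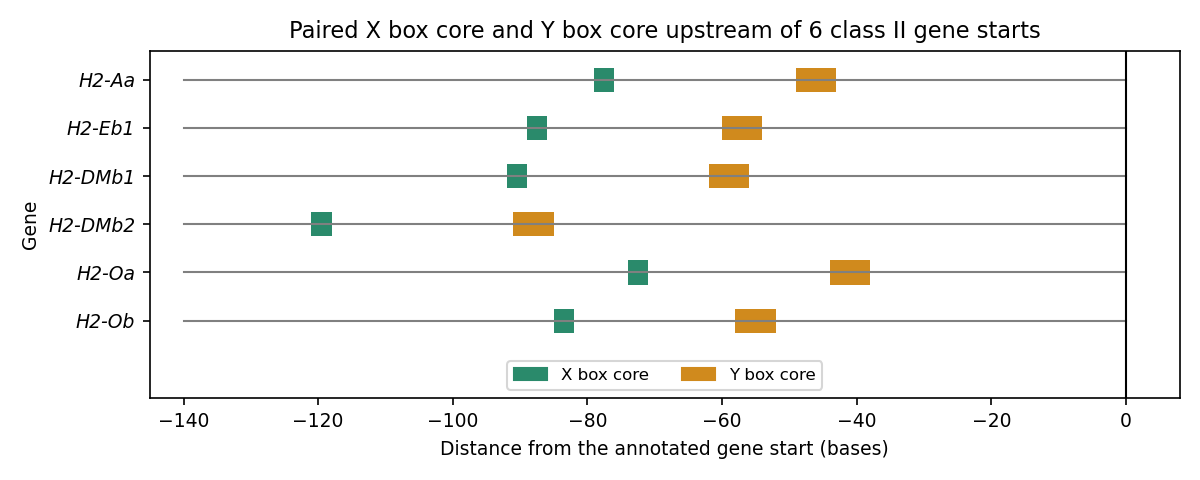
Position of AAC (green) and GATTGG (orange, Y box core) upstream of the annotated start of 6 class II genes, with distance from the start in bases on the horizontal axis. AAC carries the label X box core in the figure but is only a short part of the X box. AAC begins between 74 and 121 bases upstream, farthest in H2-DMb2, with 24 to 27 bases between its parts.

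Expression values are variance-stabilized read counts on a log2 scale, given as differences from the filtered-air mean, so that this mean is 0 for each gene. The abundance of a gene is therefore not kept, total reads per mouse are unknown, and differences of genes with few reads are compressed, so the sizes of differences in different genes are not strictly comparable. All 10 genes had reads in all 12 mice and passed the filter on low values, which kept 19633 genes. All 12 listed markers of alveolar macrophages, among them Siglecf, Marco and Pparg, also had reads in all 12 mice. Of these 12, Car4 (0.32) and Chil3 (0.25) rose and Ear1 (-0.28) and Krt79 (-0.35) fell after ozone in limma, with adjusted p-values of 0.0460, 0.0320, 0.0358 and 0.0177, and 7 of 12 had an unadjusted p under 0.05, against 16.7% of all genes in either direction, among them Marco at 0.58. The median difference of the 12 was -0.036, and the part of this shift in the class II values was not tested. Reads in all 12 mice were also present for all 44 listed markers of B cells, dendritic cells, interstitial macrophages and monocytes, type II epithelial cells and T cells, of which 0 had an adjusted p under 0.05 and 0 were at the shared minimum. In bulk RNA, fewer cells of a type and less RNA per cell cannot be told apart. Mouse 4 of the filtered-air group, with the lowest RNA integrity number (8.9, against 9.2 to 9.7 in the others), had the highest marker mean of its group in 4 of these 5 lists. Mouse 4 of the ozone group was highest of its group in 1 list and among the 3 highest in all 5. In the mean of the 12 alveolar macrophage markers, filtered-air mouse 4 was the lowest of its group (-0.099, where the highest was 0.11). Its Marco value of -0.95 was also the lowest of its group, where the highest was 0.52, and it enters the Marco difference given above. Ozone mouse 4 had a mean of 0.015 over these 12 markers, in a group that ran from -0.076 to 0.16. These 2 mice are different animals that share a number, and they stand apart in many of the values that follow, and results are given with and without them, an alternative chosen after the values had been seen.

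The classical chains and Cd74 lay lower after ozone by 0.52 to 0.61, and in each of these 4 genes 5 of the 6 ozone mice were below every filtered-air mouse. None of the 4 passed the test across all genes in the fit with batch as a covariate and all 12 mice weighted equally. H2-Aa and H2-Ab1 lay close to the threshold and passed in limma with no batch covariate (adjusted p = 0.0471 and 0.0359) or with array weights (0.0495 and 0.0382), as did H2-DMb2 (0.0455 and 0.0457). Over all genes, 1152 and 1029 were called in these fits, against 834 in the fit with batch and equal weights. Other settings went the other way. With quantile normalization H2-Aa stood at -0.44 and H2-Ab1 at -0.43 (limma adjusted p = 0.318 and 0.304). With a variance trend their limma adjusted p-values were 0.118 and 0.104. Ciita and the accessory genes also lay lower, by 0.11 to 0.26. In limma, 0 of the 10 genes had an adjusted p under 0.05, a threshold that 4.25% of the genes tested passed in either direction and 1.84% passed in the lower direction. At an unadjusted p under 0.05 stood 9 of the 10 genes, all lower, against 8.29% of genes tested that were lower at this level. The two-sided exact permutation test over 6 against 6 mice gave a p under 0.05 for 8 of the 10, against 18.2% of genes tested in either direction and 8.88% in the lower one. All 10 differences were negative, where 52.0% of all genes were lower. The median difference over the set was -0.23, beside -0.0033 over all genes tested. A difference of -0.5 or beyond, found in 0.153% of genes tested, was present in H2-Aa, H2-Ab1, H2-Eb1 and Cd74.

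H2-Ab1 encodes the beta chain of I-A, which forms the only surface class II molecule of this strain together with the alpha chain of H2-Aa. In filtered air, H2-Ab1 ranged from -0.44 through a median of 0.027 to 0.68, and after ozone from -0.80 through -0.67 to -0.12. The high value of each range belongs to mouse 4 of its group, and 4 of the 6 filtered-air mice lay above every ozone mouse. The difference was -0.61 (SE 0.163, 95% interval -0.95 to -0.26), with an SD of 0.398 in filtered air and 0.250 after ozone (n = 6 each). Its adjusted p in limma was 0.0522, just outside the threshold, and the exact permutation p was 0.0108. H2-Aa ranged from -0.48 through 0.049 to 0.68 in filtered air and from -0.83 through -0.66 to -0.074 after ozone. Its difference was -0.59 (SE 0.170, limma adjusted p = 0.0674, exact permutation p = 0.0152). As in H2-Ab1, mouse 4 was highest in each group and filtered-air mice 5 and 6 were lowest in theirs, whereas the lowest ozone mouse was mouse 1 in H2-Aa and mouse 6 in H2-Ab1.

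H2-Eb1, the beta chain of I-E, ranged from -0.34 through -0.060 to 0.72 in filtered air and from -0.80 through -0.57 to -0.059 after ozone. Here filtered-air mouse 4 stood alone, since the other 5 lay at or below -0.019, and 3 filtered-air mice exceeded every ozone mouse. The difference was -0.52 (SE 0.157, limma adjusted p = 0.0828, exact permutation p = 0.0108). Cd74 ranged from -0.50 through 0.062 to 0.66 in filtered air and from -0.83 through -0.63 to -0.011 after ozone. Its difference was -0.57 (SE 0.174, limma adjusted p = 0.0888, exact permutation p = 0.0173). In all 4 genes the groups overlapped through ozone mouse 4, which lay above filtered-air mice 5 and 6. Having at least 5 of 6 ozone mice below every filtered-air mouse, as these 4 genes and Ciita did, was found in 3.87% of genes tested. Complete separation in the lower direction, with all 6 ozone mice below every filtered-air mouse, was found in 1.58% of genes tested and in 0 of the 10.

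**Figure D2:**
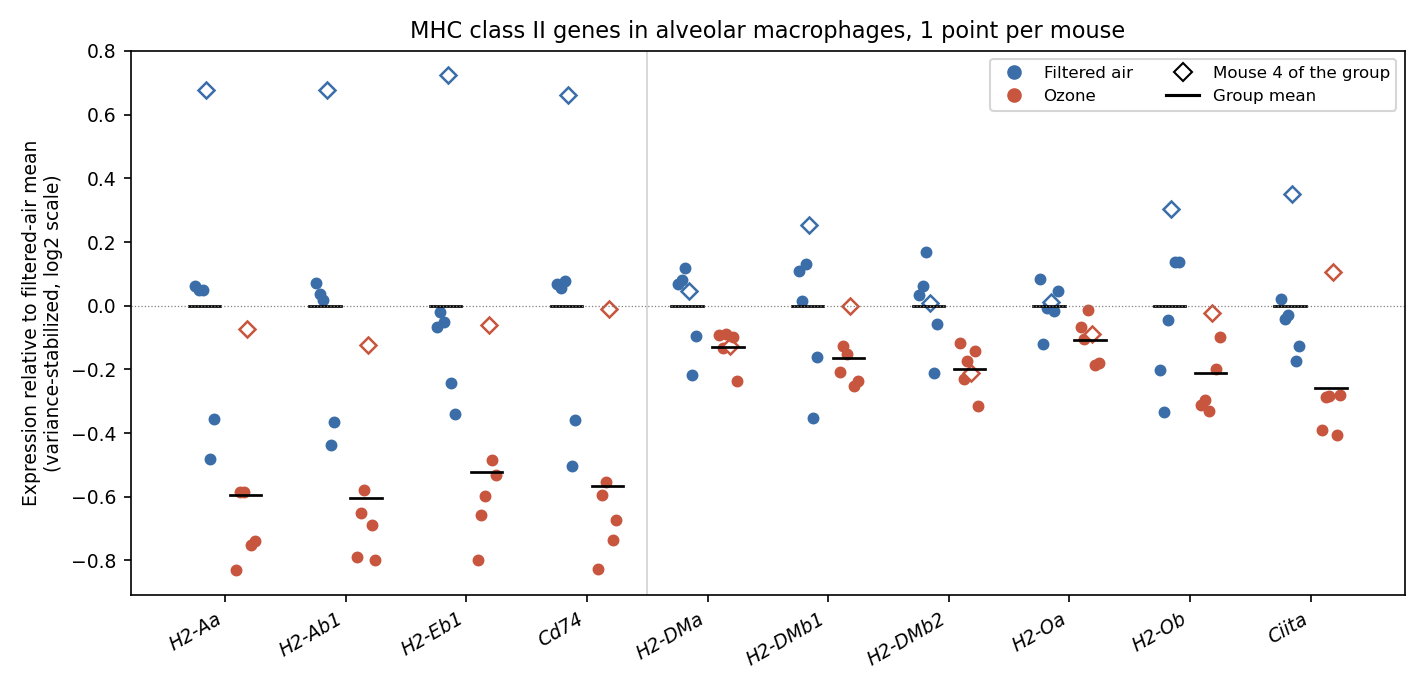
Expression of the 10 class II genes in each mouse, on a log2 scale relative to the filtered-air mean (vertical axis), with filtered air in blue, ozone in red, open diamonds for mouse 4 of each group and bars for group means. In H2-Aa, H2-Ab1, H2-Eb1 and Cd74, to the left of the grey line, 5 ozone mice lie below every filtered-air mouse and ozone mouse 4 lies between -0.12 and -0.011.

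Ciita, the coactivator of class II transcription, lay lower by 0.26 after ozone (SE 0.0942, 95% interval -0.46 to -0.056). In filtered air it ranged from -0.17 through -0.035 to 0.35, and after ozone from -0.41 through -0.29 to 0.10. The lowest filtered-air mouse was above 5 of the ozone mice, but ozone mouse 4 was above all filtered-air mice except mouse 4. The limma adjusted p was 0.161 and the exact permutation p was 0.0346. The SD was 0.185 in filtered air and 0.186 after ozone (n = 6 each).

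H2-DM, a dimer of an alpha chain (H2-DMa) and a beta chain (H2-DMb1 or H2-DMb2), edits the peptides bound by class II molecules. H2-DMb2 ranged from -0.21 through 0.021 to 0.17 in filtered air and from -0.31 through -0.19 to -0.12 after ozone. Its difference was -0.20 (SE 0.0573, limma adjusted p = 0.0702, exact permutation p = 0.0130), and 5 of 6 filtered-air mice lay above every ozone mouse. The remaining one, mouse 5, was lower than 4 of the ozone mice. H2-DMa ranged from -0.22 through 0.057 to 0.12 in filtered air and from -0.24 through -0.11 to -0.090 after ozone. Its difference was -0.13 (SE 0.0559, limma adjusted p = 0.253, exact permutation p = 0.0390), and 4 filtered-air mice exceeded every ozone mouse. H2-DMb1 ranged from -0.35 through 0.063 to 0.25 in filtered air and from -0.25 through -0.18 to -0.00083 after ozone. Filtered-air mouse 5 was the lowest of all 12 mice in H2-DMb1, and the difference of -0.16 (SE 0.0867) had a 95% interval of -0.35 to 0.023 (limma adjusted p = 0.381, exact permutation p = 0.134). H2-DMb1 and H2-DMb2 are close copies, and how reads shared by both were assigned is not given in the sources used here, so their separate values are uncertain.

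H2-O, a dimer of H2-Oa and H2-Ob found mainly in B cells and some dendritic cells, restrains H2-DM. H2-Oa ranged from -0.12 through 0.0023 to 0.085 in filtered air and from -0.19 through -0.098 to -0.014 after ozone. The 2 lowest ozone mice, 5 and 6, were below every filtered-air mouse, and the difference was -0.11 (SE 0.0436, limma adjusted p = 0.218, exact permutation p = 0.0303). H2-Ob ranged from -0.33 through 0.046 to 0.31 in filtered air and from -0.33 through -0.25 to -0.023 after ozone. The groups covered nearly the same low values, and the difference was -0.21 (SE 0.0966, limma adjusted p = 0.290, exact permutation p = 0.0909). Markers of B cells moved in the same direction: 8 of 9, among them Cd79a and Ms4a1, lay lower after ozone, with a median difference of -0.18 and 0 of 9 past the adjusted threshold. The mean of the 9 markers ranged from -0.26 to -0.062 after ozone and from -0.23 to 0.35 in filtered air. In each group the mouse highest in H2-Ob (mouse 4) was also highest in the B cell mean, and the mouse lowest in H2-Ob (filtered-air mouse 2, ozone mouse 3) was lowest in it. The part of B cell RNA in the H2-Ob values was not tested. The mean of 10 dendritic cell markers, of which 8 lay lower, ranged from -0.16 to 0.038 after ozone and from -0.15 to 0.14 in filtered air, highest there in mouse 4, and its part in the class II values was not tested. Markers of interstitial macrophages and monocytes lay the other way, with 8 of 10 higher after ozone, a median difference of 0.079 and a mean that ranged from -0.025 to 0.26 after ozone and from -0.20 to 0.24 in filtered air. The median difference was 0.0082 over 8 type II cell markers and -0.012 over 7 T cell markers.

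**Figure D3:**
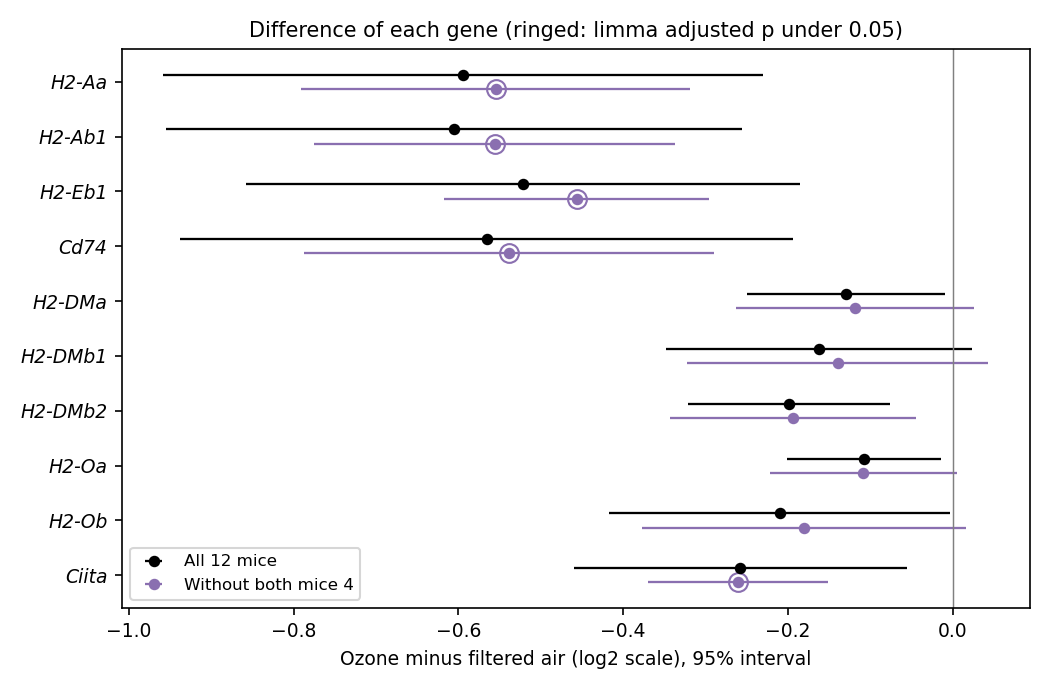
Ozone minus filtered air for each gene on the log2 scale, with 95% intervals, over all 12 mice (black) and without both mice numbered 4 (violet), where rings mark a limma adjusted p under 0.05. The 4 uppermost genes, the classical chains and Cd74, lie between -0.61 and -0.46, and only violet points carry rings (H2-Aa, H2-Ab1, H2-Eb1, Cd74 and Ciita). The mice left out in violet were picked after they had stood out in these same genes, so the rings are not a valid test.

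The classical chains with Cd74 were then set against the other 6 genes within each mouse. The mean of the 4 was -0.57 ± 0.259 (SD, n = 6) after ozone, where filtered air had an SD of 0.393 about 0. The mean of the other 6 was -0.18 ± 0.061 after ozone, with an SD of 0.104 in filtered air. Within the latter, the 3 H2-DM genes averaged -0.16 ± 0.052 and the H2-O genes -0.16 ± 0.054 after ozone, both smaller in size than the -0.26 of Ciita. The gap between the classical and the accessory mean ran from -0.61 to -0.0089 in the ozone mice, with 5 of them at or below -0.40. In filtered air it ran from -0.31 in mouse 6 to 0.52 in mouse 4, so the groups overlapped through ozone mouse 4 only. The average gap after ozone was -0.39, against a pooled SD within groups of 0.257. The classical genes also spread more between mice, with an SD in filtered air of 0.376 to 0.409, against 0.070 to 0.239 in the other 6. A smaller difference was therefore not always smaller relative to spread. H2-DMb2 stood at -0.20 with SDs of 0.127 and 0.070 (filtered air and ozone), H2-DMb1 at -0.16 with 0.221 and 0.093, and H2-Aa at -0.59 with 0.407 and 0.273. This gap is a description of mice and genes already chosen, with no test, and whether it partly reflects unequal compression of genes with few reads was not tested.

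Both flow-sort batches had all 10 differences below 0. The differences of the classical chains and Cd74 were smaller in batch 1 than in batch 2: -0.37 against -0.84 in H2-Ab1, -0.35 against -0.84 in H2-Aa, -0.28 against -0.76 in H2-Eb1 and -0.33 against -0.80 in Cd74. Ciita differed by -0.14 and -0.38. Ozone mouse 4 belongs to batch 1 and filtered-air mouse 4 to batch 2. Without these mice the batch 1 and batch 2 values were -0.55 and -0.56 in H2-Ab1, -0.54 and -0.56 in H2-Aa, -0.45 and -0.46 in H2-Eb1, -0.55 and -0.53 in Cd74 and -0.29 and -0.23 in Ciita. The difference between batches was tested with all 12 mice as an interaction term in limma. There 0 genes had an adjusted p under 0.05 (0.0% of genes tested), 2.6% of genes had an unadjusted p under 0.05, and 0 of the 10 class II genes were among these.

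Without both mice numbered 4, H2-Aa fell by 0.55 (limma adjusted p = 0.0189), H2-Ab1 by 0.56 (0.0135), H2-Eb1 by 0.46 (0.00799), Cd74 by 0.54 (0.0278) and Ciita by 0.26 (0.0178). The 5 calls stand beside 2.72% of all genes tested in these 10 mice, down from 4.25% with all mice. Both mice were picked after they had stood out in these same genes, so the p-values without them are a description and not a valid test. In H2-Aa the SE fell from 0.170 to 0.109, while the difference went from -0.59 to -0.55. The H2-DM and H2-O genes did not pass, with adjusted p-values between 0.197 and 0.527. Without ozone mouse 4 alone, the same 5 genes passed in limma, led by H2-Ab1 at -0.71 (adjusted p = 0.0227), H2-Aa at -0.71 (0.0258) and Ciita at -0.34 (0.0280). Without filtered-air mouse 4 alone, 0 of the 10 passed in limma, and H2-Ab1 stood at -0.45 (adjusted p = 0.0545). Filtered-air mouse 5 was the lowest of its group in 7 of the 10 genes. Without it, H2-DMb2 fell by 0.25 (limma adjusted p = 0.0126) and H2-DMa by 0.18 (0.0432), and H2-Aa, H2-Ab1 and Cd74 passed as well, at -0.70, -0.70 and -0.68. Without filtered-air mouse 6, H2-Aa fell by 0.67 (limma adjusted p = 0.0468) and H2-Ab1 by 0.69 (0.0322). Over all 19633 genes tested, 637 were called without ozone mouse 4 and 834 with all mice. The number called was 745 without filtered-air mouse 4, 719 without filtered-air mouse 5 and 747 without filtered-air mouse 6.

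Covariation over mice was measured within each group of 6, which gave 90 relations among the 10 genes. The smallest two-sided exact permutation p for 6 mice is 0.0014 for r and 0.0028 for rho, and p-values were adjusted over the 90. In filtered air H2-Ab1 went closely with H2-Aa (Pearson r = 0.998, exact permutation p = 0.0028, adjusted p = 0.0417; Spearman rho = 0.943, exact p = 0.0167, adjusted p = 0.150). Without mice 4 and 5, the farthest from the median, r was 0.997. H2-Ab1 also went with Ciita (r = 0.974, exact permutation p = 0.0028, adjusted p = 0.0417; rho = 0.943, exact p = 0.0167, adjusted p = 0.150), with r = 0.935 without mice 4 and 5. H2-Aa and Cd74 went with Ciita too, at r = 0.966 (exact permutation p = 0.0014, adjusted p = 0.0312) and r = 0.955 (exact permutation p = 0.0042, adjusted p = 0.0417). For H2-Ab1 with Cd74 r was 0.995 (exact permutation p = 0.0056) and with H2-Eb1 0.957 (exact permutation p = 0.0139, adjusted p = 0.0739), neither with an adjusted p under the threshold. Among the 6 pairs of classical chains and Cd74, r ranged from 0.930 to 0.999, and from 0.897 to 0.999 without mouse 4.

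After ozone the same pairs had r between 0.874 and 0.996, but between 0.207 and 0.966 without mouse 4. Only H2-Aa with Cd74 passed among the 6 pairs (r = 0.996, exact permutation p = 0.0014, adjusted p = 0.0312; rho = 1.000, exact p = 0.0028, adjusted p = 0.0625), with r = 0.945 without mice 1 and 4. H2-Ab1 with Ciita had r = 0.931 with all 6 ozone mice and 0.327 without mouse 4, and H2-Ab1 with H2-Eb1 had 0.879 and 0.207. Without mice 4 and 6, the farthest from the median, r was 0.784 for Ciita and 0.561 for H2-Eb1. Other relations of H2-Eb1 after ozone turned sign without mice 1 and 4: from 0.874 to -0.922 with H2-Aa, from 0.899 to -0.860 with Cd74 and from 0.877 to -0.703 with Ciita. The relations of H2-Eb1 and of Ciita with H2-Ab1 after ozone thus changed with the mice left out. Of the 9 relations of H2-Ab1, 2 passed in filtered air and 0 after ozone, and the difference between the groups was not tested. These counts depended on the setting: with deviations from group and batch means, 4 passed in each group, H2-Aa, Cd74 and Ciita in both, H2-DMb1 after ozone and H2-Eb1 in filtered air.

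The relations that passed differed among the H2-DM genes, and differences between relations were not tested. In filtered air H2-DMb1 went with Cd74 (r = 0.934, exact permutation p = 0.0014, adjusted p = 0.0312; rho = 1.000, exact p = 0.0028, adjusted p = 0.0625) and with H2-Aa (r = 0.919, exact permutation p = 0.0042, adjusted p = 0.0417), while H2-DMa and H2-DMb2 went with each other (r = 0.960, exact permutation p = 0.0014, adjusted p = 0.0312; rho = 1.000, exact p = 0.0028, adjusted p = 0.0625). After ozone H2-DMa with H2-DMb2 had r = 0.929 (exact permutation p = 0.0083, adjusted p = 0.0682). H2-DMa with H2-Ab1 had r = 0.663 in filtered air, and 0.958 without mouse 4, in which H2-Ab1 stood at 0.68 and H2-DMa at only 0.046. After ozone H2-DMa and H2-DMb2 had r = 0.193 and -0.020 with H2-Ab1, and 0.519 and 0.201 without mouse 4. H2-Oa showed r = 0.0067 with H2-Ab1 in filtered air and 0.292 after ozone. H2-Ob showed r = 0.147 in filtered air, which turned to -0.880 without mouse 4, and 0.549 after ozone, which turned to -0.571 without mouse 4. After ozone H2-Ob had its highest r with H2-Eb1, at 0.849 (exact permutation p = 0.0181, adjusted p = 0.0739; rho = 0.771) and 0.658 without mouse 4, while r was 0.702 with Ciita and 0.642 with Cd74, and 0.062 and -0.164 without mouse 4. In all, 9 of the 90 relations passed on r, 8 of them in filtered air, and 0 passed on rho.

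**Figure D4:**
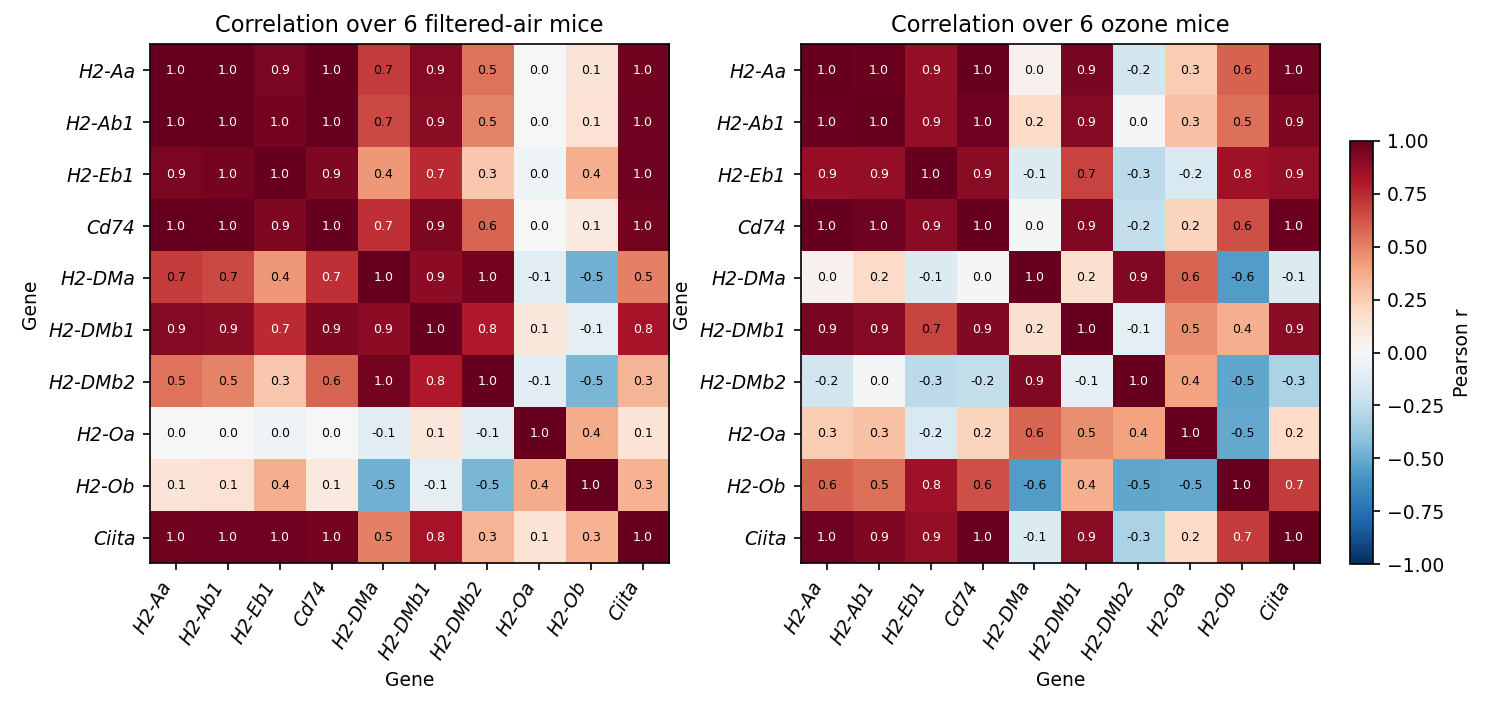
Pearson correlation (colour and rounded value) of each pair of the 10 genes over the 6 filtered-air mice (left) and the 6 ozone mice (right). The upper left block of classical chains and Cd74 is at 0.9 or above in both groups after rounding, the H2-Oa and H2-Ob rows are paler in filtered air, and H2-DMa and H2-DMb2 are between -0.3 and 0.2 with the classical chains and Cd74 after ozone.

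**Figure D5:**
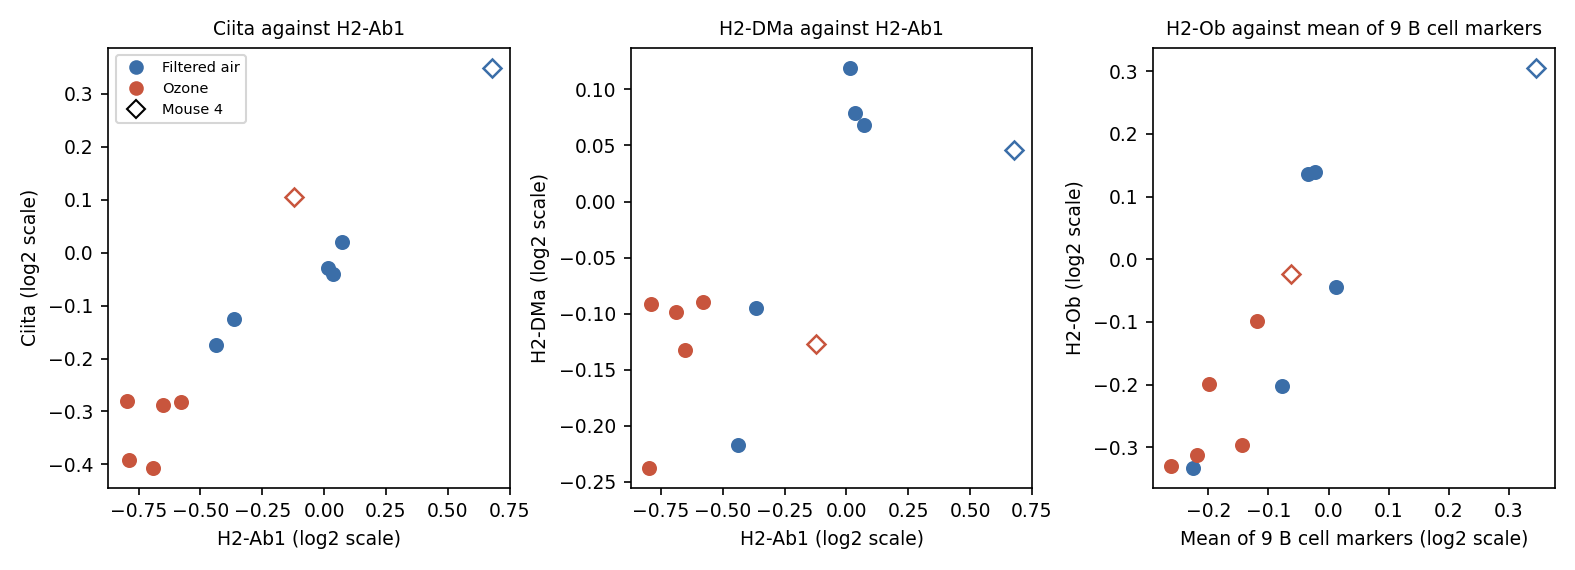
Expression in each mouse on the log2 scale: Ciita against H2-Ab1, H2-DMa against H2-Ab1, and H2-Ob against the mean of 9 B cell markers, with filtered air in blue, ozone in red and open diamonds for mouse 4 of each group. Filtered-air mouse 4 has the highest H2-Ab1 (0.68), Ciita (0.35) and H2-Ob (0.31) but not the highest H2-DMa (0.046).

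Genes outside the set were ranked by how closely their deviations from the group mean followed the mean deviation of the classical chains and Cd74 over 12 mice, among 17158 genes. The first were Slc35b2, the Golgi transporter for the sulfate donor PAPS (r = 0.974), Mfge8, a bridging protein for uptake of dying cells (0.968), Cux1 (0.952), Ephx1, an epoxide hydrolase (0.941), Cd63, a tetraspanin of late endosomes (0.937), and Timp1, an inhibitor of metalloproteinases (0.933). Akr1b8 (0.932), Ankrd33b (0.930), Stac2 (0.925) and Phldb1 (0.924) followed. In all 10 both mice numbered 4 were the highest of their group, and without them r lay between 0.610 and 0.902. Their differences between ozone and filtered air did not follow the class II genes. Cd63 rose by 0.59 (SE 0.127, limma adjusted p = 0.0157), and Mfge8 stood at 0.29 (limma adjusted p = 0.142). Of the 10, 4 lay lower after ozone, among them Ephx1 at -0.24 (limma adjusted p = 0.189). Ranking picked these genes, so their likeness carries no test.

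Genes that act on or beside the class II pathway were counted by role, against the 4.25% of all genes with an adjusted p under 0.05. Of 12 genes for factors and cofactors of class II or Ciita transcription, among them Spi1 and Irf8, which act on promoters of Ciita itself, 0 passed, with a median difference of 0.027. Rfxank, a subunit of the RFX complex bound to the X box, stood at 0.16 (SE 0.0455, limma adjusted p = 0.0674), and Rfx5, another subunit, at 0.16 (limma adjusted p = 0.266). Of 9 genes of the interferon gamma signal that induces Ciita, 0 passed, with a median of -0.025. Irf1, a transcription factor that acts at the Ciita promoter, stood at -0.14 (limma adjusted p = 0.226). Of 4 genes listed as repressors of Ciita, 0 passed, and the place of Zbtb18 on that list is uncertain. Ezh2, the methyltransferase of Polycomb complex 2, stood at 0.24 (limma adjusted p = 0.0549), and Zbtb18 at -0.085 (limma adjusted p = 0.655).

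Among antigen processing genes, some proteases rose. Of 10 proteases and helpers, 3 rose, 0 fell and the median difference was 0.068. Ctsd, the aspartic protease cathepsin D, rose by 0.42 (SE 0.0405, limma adjusted p = 0.000112), and all 6 ozone mice, between 0.36 and 0.46, lay above the highest filtered-air mouse at 0.13. The share of all genes separated in this upper direction was not computed. Lgmn, the asparaginyl endopeptidase legumain, rose by 0.25 (limma adjusted p = 0.0288), and Ctsb, cathepsin B, by 0.18 (limma adjusted p = 0.0345). Lgmn lost its call in 8 of the 12 fits without 1 mouse and Ctsb in 10 of 12, each with its direction unchanged. Ctss, cathepsin S, which makes the last cut of Cd74 before H2-DM acts, stood at 0.013 (limma adjusted p = 0.958). Of 7 genes that govern surface turnover or the membrane neighbourhood of class II, 2 rose, the tetraspanins Cd63, as given, and Cd81, by 0.30 (SE 0.0469, limma adjusted p = 0.0029). Cd9, the other tetraspanin listed, stood at -0.055 (limma adjusted p = 0.695). Marchf1, the ubiquitin ligase that marks class II for degradation, stood at 0.027 (limma adjusted p = 0.916).

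Other genes in the class II region were given for position. Of 7 listed, 6 varied between mice, and H2-Ea had one constant value in all 12 mice. Brd2, a chromatin reader encoded within the region, fell by 0.19 (SE 0.0387, limma adjusted p = 0.0134). All 6 ozone mice lay below every filtered-air mouse, as in 1.58% of genes tested. H2-Eb2, a beta chain gene next to H2-Eb1, stood at -0.12 (limma adjusted p = 0.251). The median of the 6 was -0.0038, close to that of all genes. With all 12 mice and quantile normalization, which lowered the called genes from 834 to 171, the calls of Lgmn, Ctsb, Cd63 and Brd2 were lost in limma (adjusted p-values of 0.173, 0.140, 0.0894 and 0.0987), with differences of 0.22, 0.16, 0.53 and -0.16, while those of Ctsd and Cd81 were kept. In single batches of 3 against 3 mice, Ctsd lost its call in batch 2 and Cd81 in each batch.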

How the data were processed

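RNA of flow-sorted alveolar macrophages was sequenced from 12 mice, 6 after ozone and 6 after filtered air. Library construction used a stranded mRNA kit, with paired-end reads, per the labels' protocols. The submitters' processing notes name cutadapt, STAR 2.7.7a, Salmon 1.5.2, DESeq2 1.26.0, R 3.6.0, limma 3.42.2 and the build mm10, with no role or order. The authors deposited 1 table of values on a log2 scale that, per its name, had been variance-stabilized and batch-corrected. In the values the filtered-air mean is 0 in every gene and the batch means are equal, so each value is a difference from that mean. Counts and read totals were not used here, so the depth behind a value is unknown and the number of mice limits the precision.

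All 12 columns matched 1 sample each and 0 were left over. Of 25444 genes that varied, 19633 were kept, with at least 6 of 12 mice above the lowest value of the gene that mice without reads share. limma 3.58.1 in R 4.3.3 was fitted with flow-sort batch as a covariate, without a variance trend, and p-values received Benjamini-Hochberg adjustment over all genes kept, with a threshold of 0.05. Single genes were also tested by exact permutation, two-sided, over the 924 ways to assign 6 of 12 mice, which cannot give a p below 0.00216. The fit was tested on simulated data. Correlations were computed within groups, with exact permutation p-values over the orders of 6 mice. The named genes are the 10 of the set, the genes of each pathway list with an adjusted p under 0.05 or otherwise the 2 with the smallest p, a few listed genes chosen after their values were seen (Ctss, Cd9, Marchf1, H2-Ea, H2-Eb2 and markers of cell types), and the 10 most alike the classical chains. Of the genes this rule names, 1 is not reported here. The set, lists and tests were chosen with earlier results of these data known. Same-numbered mice are different animals, and pairing was to be accepted only if the deviations correlated over 0.1 in every pair; 4 of 6 pairs met this and 2 did not, so the main fit has no block. The fit with the block is given with the alternatives, since it changes calls. The alternatives tried were other variance models, covariates, filters, scalings and weights, single batches, a replicate block and leaving out each mouse.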

Additional observations from a re-analysis of the deposited data

Results flagged for a closer look

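In 7 of the 20 combinations of a gene and a group of 6 mice, 1 mouse lay far from the rest, where chance gives about 1 of 20. The gap to the nearest other mouse, as a share of the group's range, exceeded Dixon's 95% critical value. Ozone mouse 4 stood above the rest of its group in H2-Aa at -0.074, in H2-Ab1 at -0.12, in Cd74 at -0.011 and in Ciita at 0.10. Filtered-air mouse 4 stood above the rest of its group in H2-Eb1 at 0.72 and in Ciita at 0.35. Ozone mouse 6 stood below the rest in H2-DMa at -0.24. The 10 genes share mice and vary together, so these 7 are not separate events, and their cause was not tested.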

How the results depend on the processing

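Over 25 other settings and 10 class II genes, all 250 differences were negative and 29 had an adjusted p under 0.05 in limma, and 17 settings had 0 called class II genes. The 834 called genes became 171 with quantile normalization, 90 in batch 1 alone, 0 in batch 2 alone, 534 without both mice numbered 4, and 538 to 751 with 1 mouse left out. They became 1152 with no batch covariate, 1029 with array weights and 803 with RNA integrity as a covariate, all out of 19633 genes tested. In batch 2 alone the count rests on 3 mice a group. The 0 called class II genes became 3 with no batch covariate (H2-Aa -0.59, H2-Ab1 -0.61, H2-DMb2 -0.20), 1 with RNA integrity as a covariate (H2-Ab1 -0.55), 3 with array weights (H2-Aa -0.57, H2-Ab1 -0.57, H2-DMb2 -0.20), 5 without both mice numbered 4 (H2-Aa -0.55, H2-Ab1 -0.56, H2-Eb1 -0.46, Cd74 -0.54, Ciita -0.26) and 0 to 5 with 1 mouse left out. With 1 mouse left out, differences ranged from -0.71 to -0.44 in H2-Aa, -0.71 to -0.45 in H2-Ab1, -0.62 to -0.36 in H2-Eb1, -0.69 to -0.42 in Cd74, -0.18 to -0.10 in H2-DMa, -0.24 to -0.11 in H2-DMb1 (highest without filtered-air mouse 4), -0.25 to -0.16 in H2-DMb2, -0.13 to -0.088 in H2-Oa, -0.28 to -0.14 in H2-Ob and -0.34 to -0.18 in Ciita. With the replicate number as a replicate block, 853 genes were called and 5 class II genes (H2-Aa -0.59, H2-Ab1 -0.61, H2-Eb1 -0.52, Cd74 -0.57, Ciita -0.26), with adjusted p-values from 0.0032 to 0.0082. The block pairs different animals, and 2 of 6 pairs had deviations that correlated at 0.1 or less. The count of 2 of 18 relations with H2-Ab1 became 4 with quantile normalization, 8 with deviations from group and batch means (4 in each group), and 0 to 2 with 1 mouse left out, where 5 mice allow fewer orders. The gap between classical and accessory means kept its sign, from -0.59 to -0.20. Of these settings, 1 scaled each gene to its SD within groups, so its value is not on the log2 scale. Among the 12 named pathway genes, 300 fits gave 34 lost calls, 6 gained and 0 reversed. The cause of these changes was not tested.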
